A study of Arabidopsis thaliana with 6 samples.

Results

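The plastid genome of Arabidopsis thaliana encodes a small set of proteins, and the levels of their transcripts were compared between wild-type and pho1 rosette leaves. The genes were taken as the probe sets whose annotation names exactly 1 gene and whose gene lies on the plastid genome. This gave 69 genes, 1 probe set each, of 22746 probe sets other than controls on the ATH1 array, all of them above the limit of brightness used for testing. For the plastid genome, the table of RefSeq genes (assembly TAIR10.1) lists 85 protein-coding loci. By the first 3 letters of the symbol the 69 fall into 15 groups: psb with 15 genes, ndh with 10, rps with 8, rpl with 7, atp and pet with 6 each, psa with 5, rpo with 4, ycf with 2, and acc, ccs, cem, clp, mat and rbc with 1 each. A further 8 plastid probe sets were set apart because their annotation lists several gene entries.

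Biotin-labelled total RNA was read on 6 arrays, 3 of wild type Col-2 and 3 of pho1, a single mutant line obtained by EMS mutagenesis in the Col-2 background. Plants of both genotypes grew with a 16 h photoperiod at 24 °C and 80% humidity, on MS salts in 0.8% agar with sucrose at 1%, and were taken at growth stage 3.90. The pho1 mutant is known for a shoot that is short of phosphate, because phosphate is poorly loaded into the xylem of the root. No probe set is paired with PHO1, so the mutated gene is not analysed here. Both genotypes carry the replicate numbers 1, 2 and 3. Nothing in the labels tells whether these are separate plantings. The p-values below therefore cover only the spread between these samples, and that spread may be technical.

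The plastid genome keeps genes for the cores of both photosystems, the cytochrome b6f complex, the ATP synthase and the NADH dehydrogenase-like (NDH) complex, along with the large subunit of Rubisco and part of the machinery that transcribes and translates them. Nearly all of these complexes also need subunits that the nucleus encodes. Most plastid genes are transcribed together with their neighbours, by a bacterial-type polymerase encoded in the plastid, by phage-type polymerases encoded in the nucleus, or by both, and the long transcripts are then cut, edited and protected by nuclear RNA-binding proteins.

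The deposited values are MAS5 signals, a linear measure of brightness per probe set with no absolute unit. Differences are given as pho1 minus wild type on the scale log2(signal + 10), so that a lower level in pho1 is negative, and the offset shrinks the differences of dim probe sets. Signals of a gene are listed in the order of replicates 1, 2 and 3. Levels of different genes are not compared, since each probe set has its own brightness.

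The arrays of replicate 1 stood apart from the other 4, over the whole array and over the plastid genes. Across the 69 genes, log2 signals of the 4 arrays of replicates 2 and 3 correlated at 0.978 to 0.988 with each other, wild type replicate 1 with them at 0.924 to 0.938, and pho1 replicate 1 with the other 5 arrays at 0.812 to 0.866. The 25S ribosomal RNA control read 3279, 174 and 122 in wild type and 769, 567 and 444 in pho1. The median of 12 dap, lys, phe and thr control probe sets was 4.00 and 2.15 on the arrays of replicate 1 and 52.4 to 92.8 on the others. The ratio of the 3' to the 5' actin control was 2.19, 1.53 and 1.89 in wild type and 3.01, 1.51 and 1.78 in pho1. Replicates 2 and 3 were therefore compared with limma apart from replicate 1, which has 1 array per genotype and gives values without a test. Of the leaf marker list, 3 of 10 entries are named by the annotation (SBPASE, PRK and LHCB4.2). The median signal of these 3 was 4472, 2573 and 2398 in wild type and 4278, 2581 and 2010 in pho1. By this median both arrays of replicate 1 were higher than the other 4.

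In replicate 1 the plastid transcripts read far lower in pho1 than in wild type, and in replicates 2 and 3 they did not. The median signal of the 69 genes was 1613, 1572 and 1253 in wild type and 380.4, 1427 and 1209 in pho1. By this median the pho1 array of replicate 1 is the low one, and the other 5 lie together. Gene by gene, the wild-type array of replicate 1 stood apart as well. The 69 genes made up 3.84%, 3.52% and 3.16% of the summed signal in wild type and 1.99%, 3.67% and 3.07% in pho1. Signals under 200 were read for 22 of the genes on the pho1 array of replicate 1 and for 6 to 9 on each of the others. The median difference was -1.56 in replicate 1, 0.02 in replicate 2 and -0.09 in replicate 3, while that of all 15922 probe sets tested in replicate 1 was -0.02. Leaf tissue was measured in bulk, so fewer cells of a type, fewer plastids per cell and less RNA per plastid cannot be told apart. The pho1 array of replicate 1 also had the highest 3' to 5' actin ratio, 3.01. Whether the state of the RNA on that array has a part in its low values was not tested.

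**Figure D1:**
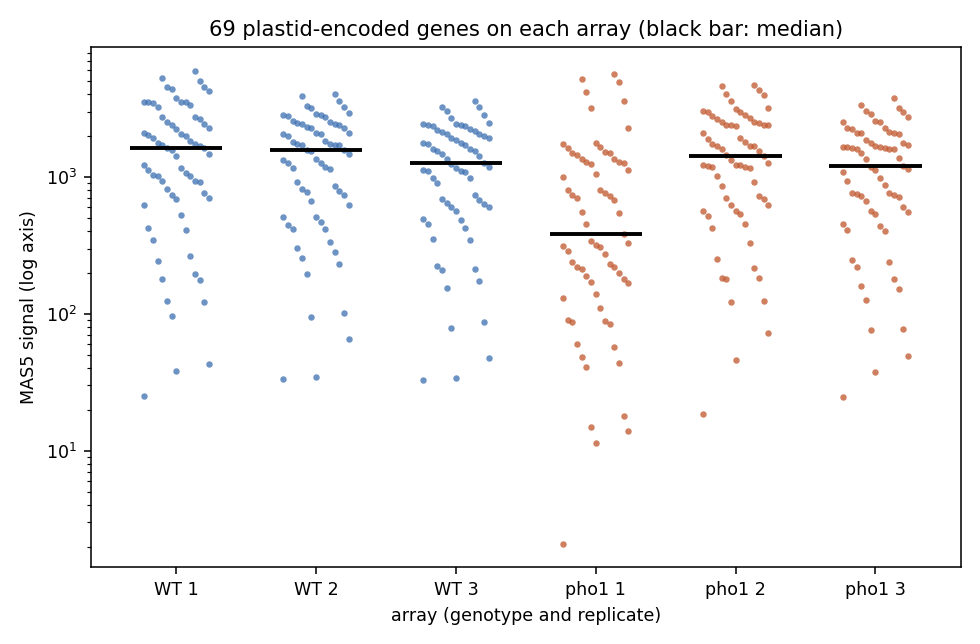
MAS5 signal (log axis) of the 69 plastid-encoded genes on each of the 6 arrays, 1 point per gene, with the median as a black bar. The median of pho1 replicate 1 lies at 380.4 and those of the other 5 arrays between 1209 and 1613.

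The lower level in replicate 1 was shared by most of the genes but its size differed widely. Of the 69, 64 were below 0, from -4.17 for psbC up to 0.14 for psaJ. A difference of -1 or lower was read for 43 genes, or 62.3%, against 1.53% of all tested probe sets. A difference of -2 or lower was read for 21 genes, or 30.4%, against 0.207%. These 21 are 63.6% of the 33 probe sets on the array that lay that low. At the other end, 15 genes differed by less than 0.5, which is 21.7% against 80.5% of all tested probe sets. The standard deviation of the difference over the 69 genes was 1.06 in replicate 1, 0.27 in replicate 2 and 0.33 in replicate 3, where that over all tested probe sets was 0.52, 0.66 and 0.64.

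The lowest value of the 6 was on the pho1 array of replicate 1 for 53 of the 69 genes, or 76.8%, against 18.7% of all tested probe sets. The 16 exceptions were petB, petD, petL and petN of the cytochrome group, psaB, psaI and psaJ, psbJ, psbL and psbM, atpB and atpE, ndhC, rpl32, rps14 and rpoA. The wild-type array of replicate 1 read above the other 5 arrays for 31 of the genes, against 22.2% of all tested probe sets. It read above both other wild-type arrays for 39 of the 69 genes and below both for 21, against 41.4% and 41.5% of all tested probe sets. For petN, a small subunit of the cytochrome b6f complex, the gap in replicate 1 is a high wild-type value. Its signals were 936, 197 and 153 in wild type and 140.2, 182 and 126 in pho1, so that only the wild-type array of replicate 1 stands out. The opposite holds for ndhH and rpoB, whose wild-type values in replicate 1 lay -1.75 and -1.22 from the mean of the other wild-type arrays (log2 scale).

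Replicate 1 was split off because it was already known to stand apart. Tests of its change against the others therefore describe the gap and give no independent support for it. They assume that the lone arrays of replicate 1 vary like the other 4, which 1 array per genotype cannot show. A shift of the genotype difference between replicate 1 and replicates 2 and 3 was tested directly. It passed for 19 of the 69 genes, or 27.5%, all of them lower in replicate 1 (limma adjusted p from 0.026 to 0.0498), against 0.383% of all tested probe sets in either direction and 0.264% lower in replicate 1. These 19 are 45.2% of the 42 probe sets that passed in that direction. At an unadjusted limma p under 0.05 there were 47 genes, all lower, against 17.1% of all tested probe sets. With the replicate number as a block the adjusted test passed 47 genes, all lower, against 8.24%. Without a filter on dim probe sets or without the intensity trend, 0 genes passed, and 0 of all probe sets in the fit did. The count also depended on which arrays were kept. The median over the 69 genes was -1.33, and it lay between -1.60 and -1.29 when each of the 4 arrays of replicates 2 and 3 was left out.

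**Figure D2:**
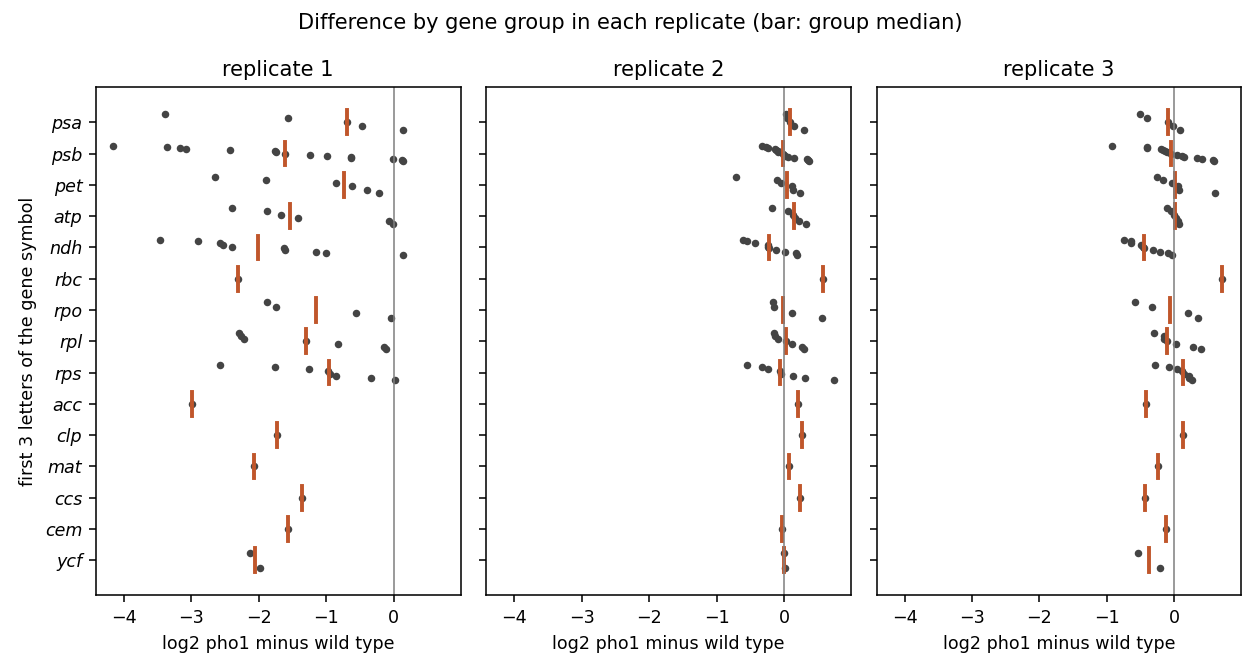
Difference of pho1 minus wild type on the log2 scale for each of the 69 genes, by the first 3 letters of the symbol, in replicates 1, 2 and 3, with the group median as an orange bar. All 15 group medians lie below 0 in replicate 1, from -0.70 for psa to -2.99 for the single acc gene, and no gene reaches -1 in replicate 2 or 3.

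The plastid transcripts of pho1 and wild type lay close together in replicates 2 and 3. The median difference was -0.01, the same to this rounding as that of all tested probe sets, and 65 of the 69 genes lay within 0.5 of 0, where 76% of all tested probe sets did. Only ndhE, ndhH and rbcL passed (limma adjusted p under 0.05). That is 4.35% of the genes, against 18.7% of all tested probe sets, with 9.2% lower and 9.54% higher. At an unadjusted limma p under 0.05 there were 8 genes, 4 lower and 4 higher, against 32.9%. Values of pho1 lay wholly below wild type for 9 genes (31.9% of all tested probe sets) and wholly above for 7 (29.5%). With the replicate number as a block, 9 genes passed against 27.9%: ndhE, ndhH, ndhJ, ndhK and psbD were lower and rbcL, rps15, rpoC2 and psbM were higher. Pairing by number within these replicates is an assumption.

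With all 6 arrays in a single comparison, 0 of the 69 genes passed by limma, where 2.96% of all tested probe sets passed, 0.345% lower and 2.62% higher. With the replicate block the count was also 0 (6.64% of all tested probe sets). The median difference was -0.52, and it rested on a single array: it was -0.079 without pho1 replicate 1 and -0.069 with array weights, while without pho1 replicate 2 it was -0.82. At an unadjusted limma p under 0.05 there were 2, ndhE and ndhF, against 15.1% of all tested probe sets. With array weights, which lower the influence of arrays that stand apart, these same 2 passed: ndhF at -0.59 (limma adjusted p = 0.015) and ndhE at -0.67 (limma adjusted p = 0.038), against 23.8%. The 3 pho1 values lay wholly below the 3 wild-type values for 6 genes (ndhE, ndhF, ndhJ, ndhK, psbD and psbE), where 9.01% of all tested probe sets did, and wholly above for 0, where 10.8% of all tested probe sets did.

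The NDH complex passes electrons from ferredoxin back to the plastoquinone pool around photosystem I, and most of its plastid-encoded genes read somewhat lower in pho1 in replicates 2 and 3. Of the 10 ndh genes, 9 lay below 0 in the mean of these replicates, where 51% of all tested probe sets did, with a median of -0.34. Most of the 10 lie in 2 transcription units (ndhC to ndhJ and ndhD to rps15) and are not independent measurements. The ndhB probe set, set apart because its annotation lists several gene entries, is not among the 10. It differed by 0.05 in replicates 2 and 3 (limma adjusted p = 0.86). As lower, 2 of the 10 passed, against 9.2% of all tested probe sets. All 10 were below 0 in replicate 3 and 7 in replicate 2. These same 7 were lower in both replicates, where 37.2% of all tested probe sets were. Values of pho1 lay wholly below wild type for 6 of the 10, where 31.9% of all tested probe sets did. The group's median lay between -0.43 and -0.29, with at least 8 members below 0, under other scalings, offsets, filters and variance models, and between -0.54 and -0.12 when an array was left out. The median nearest 0 came without pho1 replicate 3.

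For ndhE, a membrane subunit, the signals were 923, 669.5 and 639 in wild type and 167, 453 and 405 in pho1. Every pho1 value lies below every wild-type value, with the lowest in replicate 1. Without replicate 1 the mean fell from 654 ± 21.6 to 429 ± 33.6 (SD, n = 2 each), a difference of -0.60 ± 0.13 (SE; limma adjusted p = 0.021), and the replicate 1 difference was -2.39. The call ended when wild type replicate 2, wild type replicate 3 or pho1 replicate 3 was left out (adjusted p up to 0.12).

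The ndhH gene encodes a subunit of the arm that faces the stroma. Its signals were 123, 449 and 427 in wild type and 2.1, 331 and 249 in pho1. Within each replicate pho1 is the lower, but the wild-type value of replicate 1 is below the pho1 values of replicates 2 and 3. The mean of replicates 2 and 3 fell from 438 ± 15.6 to 290.3 ± 58 (SD, n = 2 each), a difference of -0.59 ± 0.16 (SE; limma adjusted p = 0.044). The call ended in 6 of 14 alternatives, with adjusted p up to 0.18: without an intensity trend, without a filter, with quantile normalization, and without wild type replicate 2, wild type replicate 3 or pho1 replicate 3.

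Among the other ndh genes, ndhF, a large membrane subunit whose probe set is dim, read 38, 33.7 and 33 in wild type and 11.5, 18.6 and 24.6 in pho1. Its pho1 values are all below its wild-type values, and its difference in replicates 2 and 3 was -0.46 ± 0.18 (SE; limma adjusted p = 0.13). The stroma-side subunits ndhJ and ndhK, which are transcribed together, differed in replicates 2 and 3 by -0.43 ± 0.18 and -0.34 ± 0.17 (SE; limma adjusted p = 0.16 and 0.23, or 0.021 and 0.048 when blocked by replicate). The third gene of that transcription unit, ndhC, read 2054, 2082 and 1539.8 in wild type and 2262, 2105 and 1507 in pho1, with full overlap of the groups. In replicate 1 the 3 genes differed by 0.14 for ndhC, -2.90 for ndhK and -2.58 for ndhJ. The remaining genes ndhA, ndhD, ndhG and ndhI lay between -0.35 and 0.04 in replicates 2 and 3 and did not pass. In replicate 1, ndhD was at -2.53, ndhA at -1.63 and ndhG at -1.61, and ndhI read 3542, 2813 and 2677 in wild type and 1760.2, 3188 and 2509.8 in pho1.

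Few nuclear partners of the NDH complex are named by the annotation used, and these mostly read lower too. Of 25 entries of a list of nuclear NDH subunits and assembly or RNA factors, 6 are named. All 6 lay below 0 in replicates 2 and 3, where 51% of all tested probe sets did, with a median of -0.44. As lower, 2 of the 6 passed, against 9.2% of all tested probe sets. The subunit gene NdhL read 899, 800.1 and 742 in wild type and 766, 409 and 376 in pho1. Its difference was -0.23 in replicate 1, and the change between replicates of 0.73 ± 0.22 did not pass (SE; limma adjusted p = 0.18, or 0.040 when blocked by replicate). NdhL fell by 0.96 ± 0.13 and NdhN, a subunit of the stroma-side arm, by 0.86 ± 0.16 (SE; limma adjusted p = 0.0038 and 0.012). CRR21, CRR22 and CRR28, which are needed for editing of ndh transcripts, differed by -0.58, -0.29 and -0.07 (limma adjusted p = 0.075, 0.32 and 0.81, the first 0.022 when blocked by replicate), and the subunit NdhS by -0.28 (limma adjusted p = 0.49). In replicate 1 the 6 genes had a median of -0.32, against -2.01 for the 10 plastid-encoded ndh genes.

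The large subunit of Rubisco, the enzyme that fixes CO2, is encoded by rbcL, the only plastid gene that passed as higher. Its signals were 937, 819 and 684 in wild type and 180, 1226 and 1127 in pho1. In replicates 2 and 3 both pho1 values exceed all 3 wild-type values, and in replicate 1 the pho1 value is the lowest of the 6. The mean of replicates 2 and 3 rose from 752 ± 95.6 to 1177 ± 70.5 (SD, n = 2 each), a difference of 0.64 ± 0.15 (SE; limma adjusted p = 0.023). The call ended without a filter and without wild type replicate 3, pho1 replicate 2 or pho1 replicate 3 (adjusted p up to 0.14). The replicate 1 difference was -2.32, and the change of -2.96 ± 0.25 from replicates 2 and 3 to replicate 1 passed (limma adjusted p = 0.026).

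The nuclear genes named for Rubisco, an assembly factor and the activase, did not follow rbcL. Of 8 entries 2 are named, and neither encodes the small subunit. The assembly factor AT5G51110 (RAF2) fell in replicates 2 and 3 by 0.63 ± 0.17 (SE; limma adjusted p = 0.044). RCA, the Rubisco activase that frees the enzyme's active site, differed by 0.04 ± 0.15 (SE; limma adjusted p = 0.90).

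**Figure D3:**
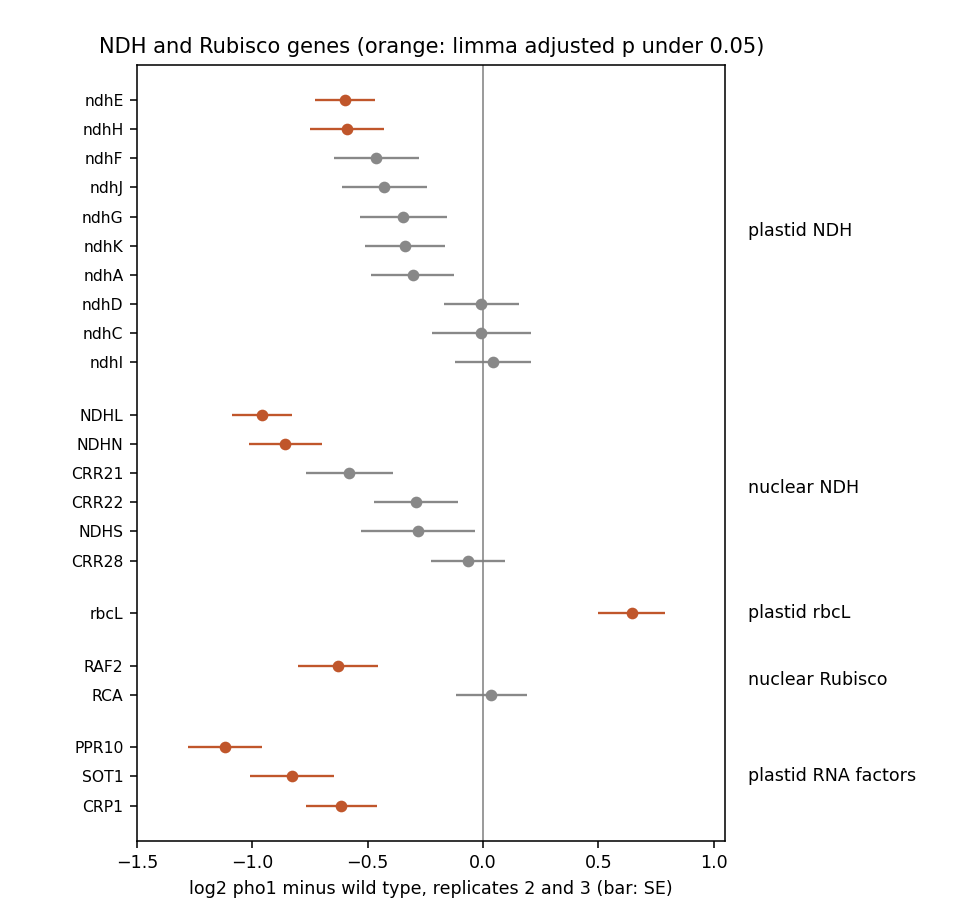
Difference of pho1 minus wild type in replicates 2 and 3 on the log2 scale with its SE, for the plastid-encoded ndh genes and rbcL and for their named nuclear partners and nuclear factors of plastid RNA. Orange marks a limma adjusted p under 0.05: ndhE, ndhH and the marked nuclear genes lie between -1.12 and -0.59 and rbcL lies at 0.64.

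Photosystem II splits water and starts electron transport, and its 15 psb genes included the lowest log2(signal + 10) difference of replicate 1 and also some near 0. The median was -1.61 in replicate 1 and 0.05 in replicates 2 and 3, where 0 passed. The core antenna gene psbC read 3551, 2484 and 2193 in wild type and 188, 2337 and 1648 in pho1. Only the pho1 array of replicate 1 is low, 18.9-fold below its wild-type partner, while on raw signals the gap of the dim ndhH value was 58.7-fold. For psbB, the other core antenna, the signals were 1227, 1170 and 990 in wild type and 110.4, 1182 and 745 in pho1, an 11.1-fold gap in replicate 1. The D2 reaction centre gene psbD, which shares its transcript and 53 bases with psbC, read 1757, 1572 and 1465 and 198, 1442 and 767, and all pho1 values lie below all wild-type values. Its difference in replicates 2 and 3 was -0.52 ± 0.27 (SE; limma adjusted p = 0.23, or 0.020 when blocked by replicate).

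The D1 reaction centre gene psbA read 4512, 2765 and 1707 in wild type and 1342, 2529 and 1646 in pho1, and the wild-type values alone span 1707 to 4512. Its difference was -1.74 in replicate 1 and -0.09 ± 0.28 in replicates 2 and 3 (SE; limma adjusted p = 0.86). The gene psbN, which is read from the strand opposite to the psbB unit and serves assembly of the photosystem, had signals of 242, 95.5 and 87.5 in wild type and 18, 124 and 76.9 in pho1. Both arrays of replicate 1 stand out there, in opposite directions, and the change between replicates of -3.26 ± 0.37 passed (limma adjusted p = 0.038). The small subunit psbK also passed for that change, at -2.50 ± 0.35, with signals of 2096, 1718 and 1603 in wild type and 380.4, 1427 and 2132 in pho1.

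Some small psb subunits showed no gap in replicate 1. The psbL signals were 619.5, 622 and 648 in wild type and 681, 689.5 and 564 in pho1, and those of psbM were 4564, 3569.9 and 2049 and 4956, 4626 and 3043. For both genes the groups overlap, and the pho1 value of replicate 1 is not low. Along with psbJ they differed by between -0.01 and 0.13 in replicate 1. The cytochrome b559 genes psbE and psbF were both at -0.64 there. The genes psbH, psbI, psbT and psbZ, small subunits of the complex, lay between -1.76 and -0.99.

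Photosystem I drives electrons to ferredoxin, and its 2 reaction centre genes, which share a transcript, differed sharply in replicate 1. The psaA signals were 3342, 2810.4 and 2439 in wild type and 309.5, 3126 and 2275 in pho1, with the pho1 array of replicate 1 alone low, by 10.8-fold against its partner. Those of psaB were 5018, 3297 and 3239.5 and 3609, 4043 and 3196, and the groups overlap. The replicate 1 differences were -3.39 for psaA and -0.47 for psaB. Both lay near 0 in the other replicates, at 0.03 ± 0.19 and 0.14 ± 0.16 (SE; limma adjusted p = 0.94 and 0.62). The change between replicates passed for psaA (-3.42 ± 0.32, limma adjusted p = 0.036) and not for psaB (-0.61 ± 0.29, 0.33). The iron-sulfur subunit psaC was at -1.56 in replicate 1, and the small subunits psaI and psaJ at -0.70 and 0.14.

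**Figure D4:**
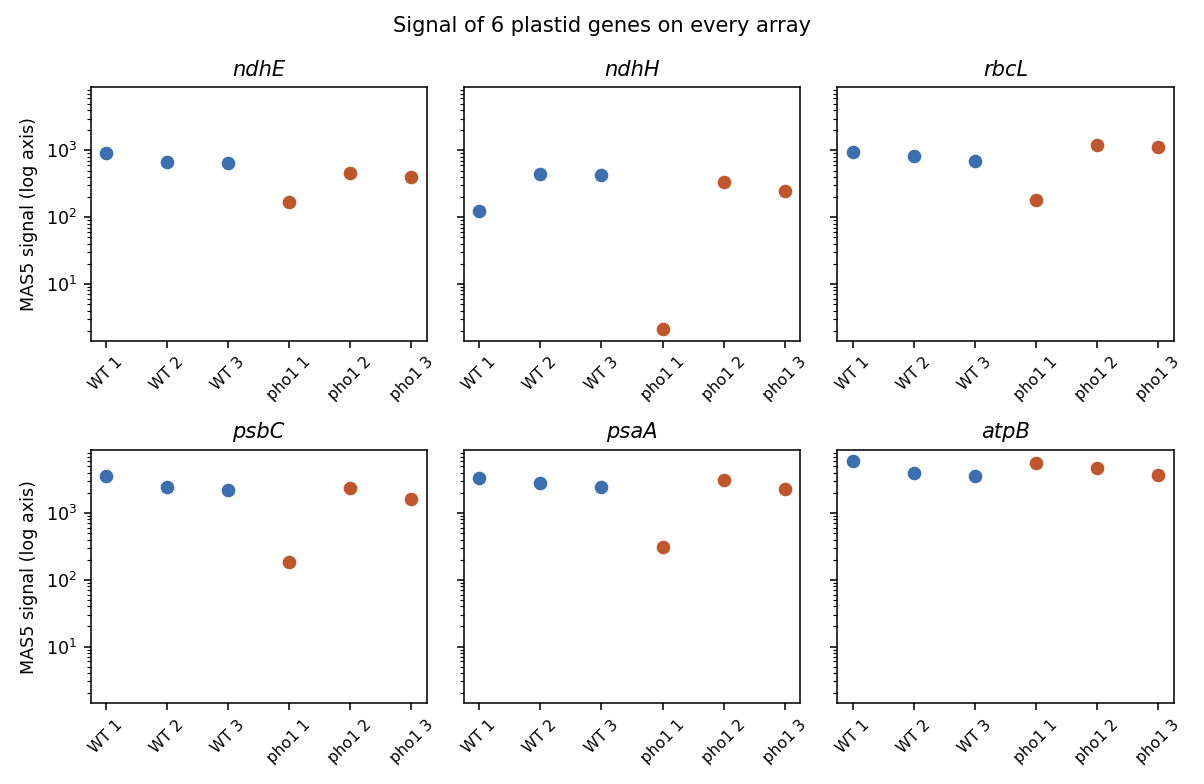
MAS5 signal (log axis, the same range in all panels) of ndhE, ndhH, rbcL, psbC, psaA and atpB on each array, with wild type in blue and pho1 in orange. In 5 of the 6 panels pho1 replicate 1 is the lowest point, and atpB, at 5634 there, is the exception.

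The cytochrome b6f complex links both photosystems, and its 6 plastid genes had a median of -0.74 in replicate 1. Cytochrome f (petA), cytochrome b6 (petB) and subunit IV (petD) differed by -0.22, -0.40 and -0.86. The small subunits petL, petG and petN differed by -0.62, -1.90 and -2.65. The 6 genes lay in replicates 2 and 3 between -0.32 and 0.42 and 0 passed. The lowest and highest of them, petG and petD, have standard errors of 0.20 and 0.33.

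The plastid ATP synthase makes ATP from the proton gradient, and its 6 plastid genes lie in 2 transcription units with different values in replicate 1. The catalytic subunit gene atpB read 5933, 4022 and 3583 in wild type and 5634, 4687 and 3754 in pho1, and atpE, which overlaps it by 4 bases, read 5241, 3917 and 3256 and 5222, 4281 and 3368. Both arrays of replicate 1 are high for these genes and close to each other. The difference was -0.07 for atpB and -0.01 for atpE. The genes of the other unit lay at -2.40 for atpI, -1.67 for atpH, -1.88 for atpF and -1.42 for atpA. All 6 lay between -0.14 and 0.18 in replicates 2 and 3, and 0 passed.

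Genes for transcription and translation in the plastid were lower in replicate 1 as well. The rpo genes encode the core of the bacterial-type RNA polymerase and had a median of -1.15 over 4 genes: -0.03 for rpoA, -0.56 for rpoB, -1.74 for rpoC1 and -1.88 for rpoC2. For rpoC2 the signals were 347, 419.9 and 482 in wild type and 86.8, 627 and 555 in pho1. In replicates 2 and 3 both pho1 values lie above all wild-type values, with a difference of 0.38 ± 0.14 (SE; limma adjusted p = 0.1, or 0.038 when blocked by replicate). The change between replicates of -2.27 ± 0.24 passed (limma adjusted p = 0.036).

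Of the ribosomal protein genes, the 7 rpl genes of the large subunit had a median of -1.29 in replicate 1 and the 8 rps genes of the small subunit -0.96. The genes rpl14, rpl16 and rpl20 lay between -2.30 and -2.22 and passed for the change between replicates (limma adjusted p from 0.036 to 0.0498). The gene rps15 read 407, 335 and 349 in wild type and 59.9, 568 and 408 in pho1. It is lowest in pho1 replicate 1 and highest in pho1 replicates 2 and 3. Its difference in replicates 2 and 3 was 0.48 ± 0.17 (SE; limma adjusted p = 0.099, or 0.018 when blocked by replicate), and the change between replicates of -3.06 ± 0.30 passed (limma adjusted p = 0.036). Smaller replicate 1 gaps were read for rps3 at -0.34, rpl36 at -0.14 and rpl32 at -0.11, and rps14, with a dim probe set, was at 0.02. None of the 15 passed in replicates 2 and 3. Of these, 3 were under an unadjusted limma p of 0.05, with rps16 at -0.31, rpl36 at 0.33 and rps15 at 0.48.

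The other plastid genes have single roles. The gene accD encodes a subunit of acetyl-CoA carboxylase, the first enzyme of fatty acid synthesis, and read 1817, 740.5 and 986 in wild type and 219.6, 853 and 738 in pho1. Here the arrays of replicate 1 are the highest and the lowest of the 6, and the change between replicates of -2.89 ± 0.30 passed (limma adjusted p = 0.036). For clpP, a protease subunit, the signals were 3518, 2452 and 2496 in wild type and 1055, 2968 and 2720.5 in pho1, and the change of -1.93 ± 0.24 passed (limma adjusted p = 0.041). So did that of ycf4, a photosystem I assembly factor, at -1.88 ± 0.23 (limma adjusted p = 0.041). In replicate 1 ycf3, another such factor, was at -2.14, the intron splicing factor gene matK at -2.07, the cytochrome c assembly gene ccsA at -1.36 and the envelope protein gene cemA at -1.56. These 7 genes lay in replicates 2 and 3 between -0.26 and 0.20 and 0 passed.

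The gap of replicate 1 did not run evenly along transcription units, whose genes are copied into a single long RNA. The textbook units hold 57 of the genes in 15 units with at least 2 measured members. The spread between the highest and lowest member had a median of 1.46 over the units in replicate 1, 0.25 in replicate 2 and 0.47 in replicate 3. Replicate 1 had the widest spread in 13 of the 15 units, the exceptions being atpB to atpE and psbE to psbJ. A spread over 1 was read in 11 units in replicate 1 and in 1 unit in each of replicates 2 and 3. Members of a unit share their transcript and are not independent measurements.

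Along the psbB unit the replicate 1 difference went from -3.36 for psbB through -1.76 for psbT and -1.61 for psbH to -0.40 for petB and -0.86 for petD. Along the psaA unit it went from -3.39 for psaA to -0.47 for psaB and 0.02 for rps14. In both units the gene at the start of the transcript is the lowest. Along the ndhC unit the order was the reverse, with ndhC, transcribed first, at 0.14 and the genes after it at -2.90 and -2.58. The accD unit started at -2.99 for accD and ended at -0.22 for petA, with psaI at -0.70, ycf4 at -1.99 and cemA at -1.56 between them. The psbD unit ran from -3.09 through -4.17 for psbC to -1.25 for psbZ.

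**Figure D5:**
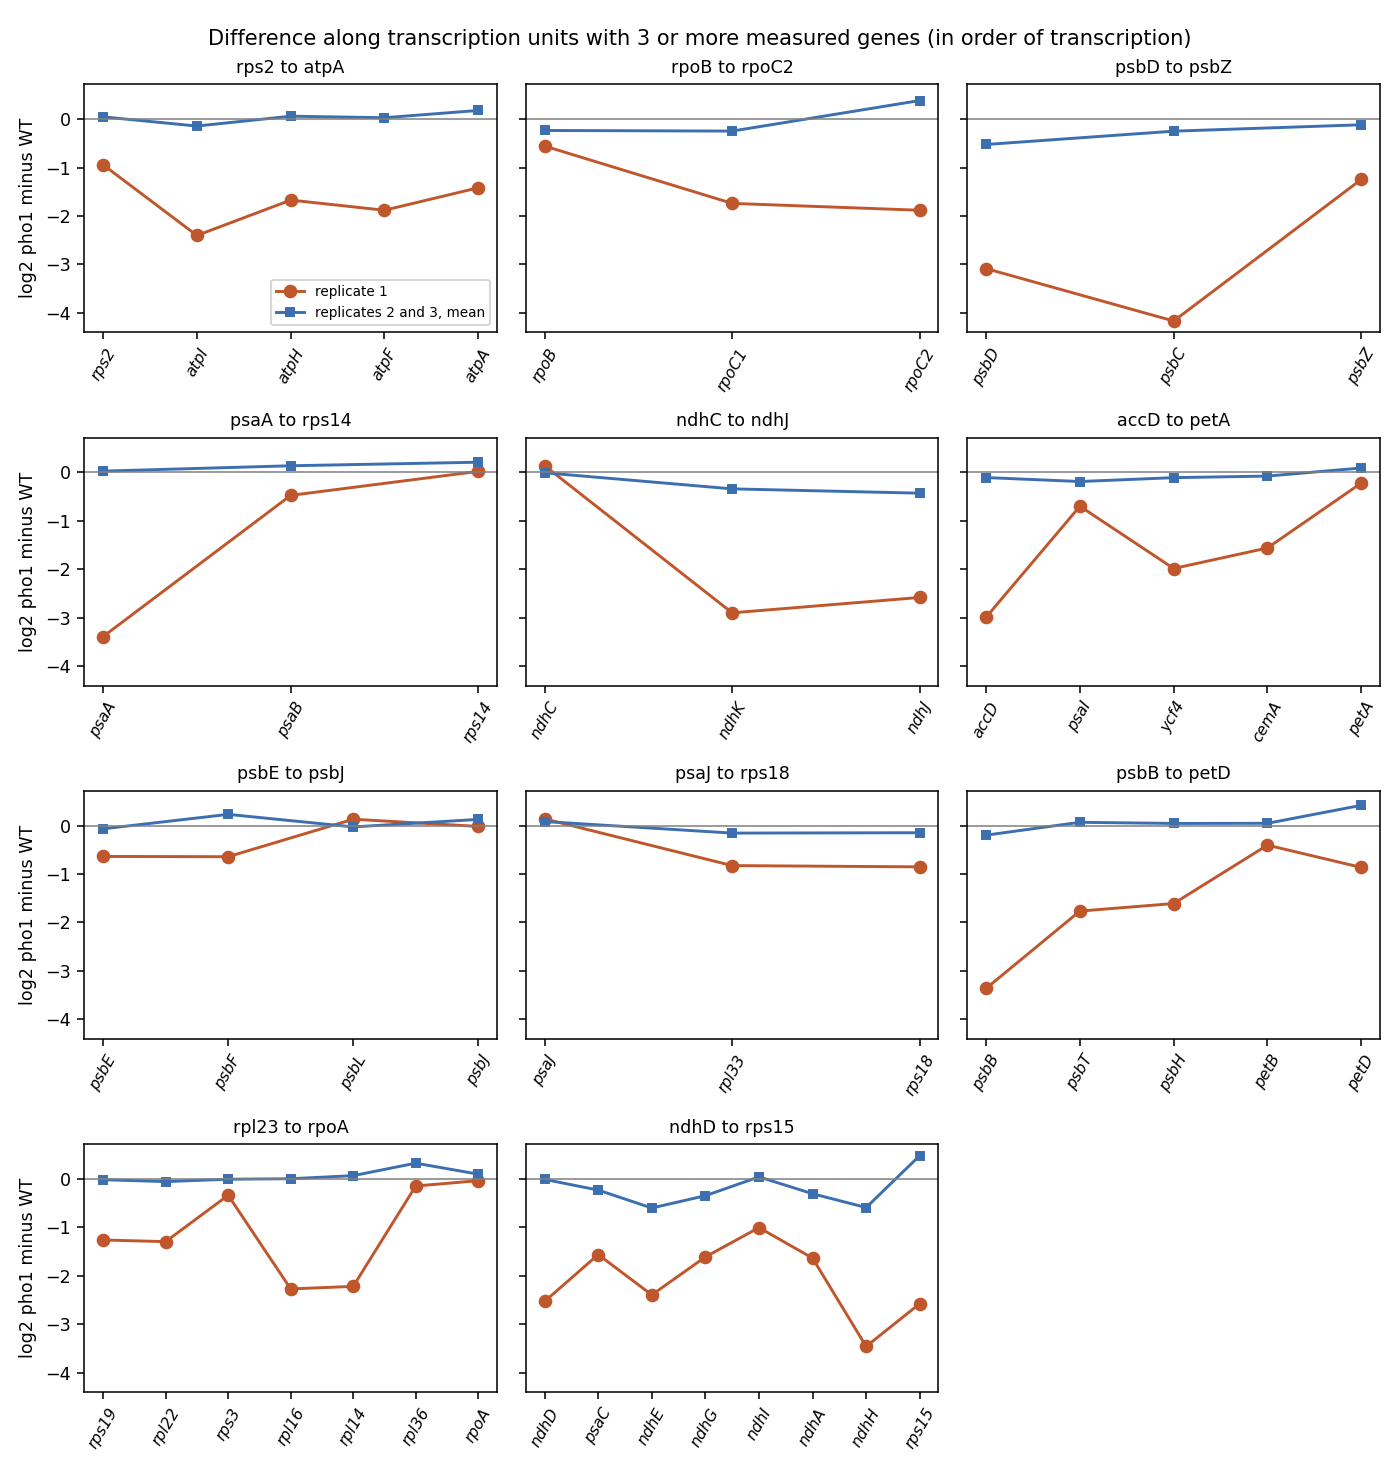
Difference of pho1 minus wild type on the log2 scale along the 11 transcription units with 3 or more measured genes, in the order of transcription, for replicate 1 (orange) and the mean of replicates 2 and 3 (blue). Within a unit the orange values span 0.77 to 3.41, and the blue values stay within 0.60 of 0.

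By class of polymerase, the medians of replicate 1 differed while the ranges overlapped. By textbook assignment, known mainly from tobacco, 8 measured genes are served by the plastid-encoded polymerase, 4 by the nuclear-encoded polymerase and 5 by both. Their replicate 1 medians were -2.70, -1.81 and -1.16, with ranges from -4.17 to -0.47, from -2.99 to -0.56 and from -2.40 to -0.07 that overlap widely. The medians of replicates 2 and 3 were -0.08, -0.17 and -0.14. No test was made on these medians, since all values of a replicate come from the same 2 arrays.

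Gene length went weakly with the gap of replicate 1. The 30 genes under 400 bases had a median of -0.92, the 14 from 400 to 1000 bases -1.46 and the 25 of 1000 bases or more -1.88. Across the 69 genes, which share the same arrays, Pearson's r with log2 length was -0.29 and Spearman's rho -0.28. With the wild-type level of replicates 2 and 3 these were 0.11 and 0.23. The replicate 1 difference correlated with that of replicates 2 and 3 at r = 0.36 (rho = 0.40), and replicate 2 with replicate 3 at r = 0.29 (rho = 0.25). These are descriptions over genes, which are not replicates. Whether the 25S RNA, spike-in or actin control values given above have a part in the gap of replicate 1 was not tested.

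Named nuclear genes for plastid complexes were mostly lower in pho1 in replicates 2 and 3 and near 0 in replicate 1. Of 141 list entries 21 are named and 20 were tested. In replicates 2 and 3, 8 of the 20 fell and 0 rose (limma adjusted p under 0.05; 9.2% of all tested probe sets were lower), with a median of -0.29. In replicate 1 their median was -0.07 and 17 of the 20 lay within 0.5 of 0, where 80.5% of all tested probe sets did. For the change between replicates 0 passed by limma. At an unadjusted limma p under 0.05 there were 7, of which 1 was lower in replicate 1, against 17.1% of all tested probe sets. With the replicate block 3 passed, NdhL, NdhN and SOT1, all higher in replicate 1 (limma adjusted p = 0.040, 0.012 and 0.045, against 8.24% of all tested probe sets). Subunit genes of the complexes other than NDH that the nucleus encodes (PSAN, PSAE-1, PSBY, PSBW, ATPC1 and AT2G26500, or PetM) lay between -0.11 and 0.16 in replicates 2 and 3, and none passed. Each of these genes read higher on both arrays of replicate 1 than on the others. For PSAN and PSAE-1 the median excess over replicates 2 and 3 was 0.83 in wild type and 0.82 in pho1 (log2 scale).

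Besides NdhL, NdhN and RAF2, the genes that fell in replicates 2 and 3 were 3 factors of plastid RNA, a ribosomal protein gene and a protease gene. AT2G18940, whose maize counterpart PPR10 protects the ends of plastid transcripts, read 76.8, 112 and 139 in wild type and 67.8, 54.4 and 49.6 in pho1. It fell by 1.12 ± 0.16 (SE; limma adjusted p = 0.0046). AT5G46580 (SOT1), needed for maturation of plastid ribosomal RNA, fell by 0.83 ± 0.18, and AT5G42310 (CRP1), needed for psaC and petB transcripts, fell by 0.62 ± 0.15 (SE; limma adjusted p = 0.022 and 0.033). In replicate 1 the same 3 genes differed by -0.16, -0.03 and -0.28. The plastid ribosomal protein gene AT1G64510 (PRPS6) fell by 0.66 ± 0.13 and CLPP4, a nuclear partner of clpP, by 0.55 ± 0.14 (SE; limma adjusted p = 0.013 and 0.032), while the related CLPR3 (AT1G09130) differed by -0.21 (limma adjusted p = 0.30). Of the transcription list the single named gene, the phage-type polymerase AT5G15700, was too dim to be tested.

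Most tested probe sets of the mitochondrial genome, the other organelle with its own transcripts, lay near 0 in replicate 1, but they were dim. Of 18 probe sets matched to mitochondrial genes by symbol, 13 were bright enough to test, and several of them belong to the same gene. The median signal of the 13 lay between 36 and 59.9 on the 6 arrays, and that of the 69 plastid genes between 380.4 and 1613. The offset therefore shrinks differences of the 13 more. Their median difference was -0.04 in replicate 1, with 1, nad4 at -1.09, at -1 or lower (1.53% of all tested probe sets). It was 0.26 in replicates 2 and 3, where 2 rose and 0 fell, against 9.54% and 9.2% of all tested probe sets. The 2 were cox1, a subunit of the terminal oxidase, at 0.69 ± 0.14, and nad4L, a subunit of respiratory complex I, at 0.56 ± 0.16 (SE; limma adjusted p = 0.015 and 0.048). Blocked by replicate number, nad4, another complex I gene, was also higher (0.43, limma adjusted p = 0.021). For the change between replicates, 0 of the 13 passed by limma, where 0.383% of all tested probe sets did, and 1 was at an unadjusted p under 0.05 (17.1%). When blocked by replicate that 1, nad4, passed at -1.52 (limma adjusted p = 0.00094). Whether this share differs from that of the plastid genes was not tested.

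Markers of other cell types were few. SBPASE, a Calvin cycle enzyme on the leaf list, fell in replicates 2 and 3 by 0.80 ± 0.17 (SE; limma adjusted p = 0.019), and the leaf genes PRK and LHCB4.2 differed by -0.29 and 0.48 without passing. The root gene PYK10 read 191, 173 and 398 in wild type and 278, 571 and 457 in pho1, and overlapped between genotypes over the 3 replicates. It is 1 of 5 root entries, FAMA is 1 of 4 for guard cells, TRY is 1 of 4 for trichomes and epidermis, and 0 of 4 vascular entries are named. None of these 3 passed. When blocked by replicate, PYK10 was higher by 0.93 and LHCB4.2 by 0.48, and TRY differed by -0.79 (limma adjusted p = 0.0068, 0.0072 and 0.015). Whether the makeup of the leaf has a part in any of the differences was not tested.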

How the data were processed

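Transcript levels were measured with ATH1 arrays, 1 sample per array. The authors deposited linear intensity values, the MAS5 signal of each of 22810 probe sets, per the submitters' processing notes (version not given in the sources used here). Each array's trimmed mean (2% off each end) was 100.01, so the deposited arrays share a level. Detection calls were not used, and precision is limited by the number of arrays.

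Signals were scaled to the mean of these trimmed means, and the offset was 10% of it. Of the 22746 probe sets that are not among the 64 controls, tests covered the 15922 whose mean log2 value reached the 30th percentile (signal 17.4). Fits used limma 3.58.1 (lmFit, eBayes with intensity trend, two-sided, no block) in R 4.3.3 over all of these, calling a Benjamini-Hochberg adjusted p under 0.05. Figures were drawn with matplotlib 3.10.9. The scripts were tested on simulated arrays. Table columns of other samples numbered 0.

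In the platform annotation 13513 probe sets had 1 gene, 503 several and 8730 none listed. Names came from that annotation and the RefSeq table, and no sequence was used. The genes, the 15 lists (168 entries, 27 named) and the split by replicate were chosen with earlier results of these data known. One further list entry is not reported here and enters no count of a list. Every plastid gene could be named. Of each other list, the members past the threshold, at most 4, or else the 2 with the smallest p were to be named. CRR21, CRR22, CRR28, NdhS, RCA, CLPR3, PRK, LHCB4.2 and nad4 go beyond that rule and were named with their values known.

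Same-numbered samples deviated together from their group means, with correlations across probe sets of 0.42, 0.22 and 0.39 for replicates 1, 2 and 3. On this evidence, which is not in the labels, differences within a replicate and the fits with the replicate block took samples as paired by number. The main limma fits did not use the pairing. Wild type replicate 3 and pho1 replicate 2 also correlated, at 0.33, above the 0.22 of the replicate 2 samples. Deviations from a group mean sum to 0, so replicate 1, standing apart in both genotypes, pushes replicates 2 and 3 the same way. The correlations therefore cannot decide how replicates 2 and 3 pair. Single differences of replicates 2 and 3, and calls with the replicate block, rest on pairing by number. Alternatives covered scaling, offset, filter, variance model, the block, array weights and leaving out each array.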

Additional observations from a re-analysis of the deposited data

Results flagged for a closer look

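The genotype difference of 19 plastid genes changed between replicate 1 and replicates 2 and 3, by limma's test of that change (adjusted p under 0.05, against 0.383% of all tested probe sets). All 19 were lower in replicate 1. On the log2 scale the change was -3.92 for psbC, -3.42 for psaA, -3.26 for psbN, -3.17 for psbB and -3.06 for rps15. It was -2.96 for rbcL, -2.89 for accD, -2.87 for ndhH, -2.56 for ndhK, -2.52 for ndhD, -2.5 for psbK and -2.47 for petN. For rpl14 it was -2.29, for rpl16 -2.28, for rpoC2 -2.27, for rpl20 -2.16, for clpP -1.93, for ycf4 -1.88 and for ndhE -1.8. The ndhH value rests on a pho1 signal of 2.1 in replicate 1, at the dim end of the array, and its size depends on the offset: it was -4.72 with an offset of 1% and -1.20 with 50% of the trimmed mean, where the call ended (limma adjusted p = 0.085). Of these genes, rbcL, rps15 and rpoC2 had both pho1 values of replicates 2 and 3 above all wild-type values, and petN owed its change to a high wild-type value in replicate 1 (935.5, against 197 and 153). The test assumes that the lone arrays of replicate 1 vary like the other 4, and a cause was not tested. The split itself was chosen with replicate 1 known to stand apart, so these calls give no independent support for the gap.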

How the results depend on the processing

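The count of plastid genes called in replicates 2 and 3, 3 in the reported fit, was 1 without a filter on dim probe sets and 9 with the replicate block, and it lay between 0 and 4 when each array was left out (0 without wild type replicate 3 or pho1 replicate 3, 1 without wild type replicate 2). The median difference there, -0.0084, was -0.098 with each array centred on its median and lay between -0.18 and 0.13 when each array was left out. That centring also moved the calls over all tested probe sets from 1519 higher and 1465 lower to 1349 higher and 2135 lower. Over all 6 arrays the count was 0, 2 with array weights, and 0 to 0 when each array was left out. The count for the change between replicate 1 and the others, 19, was 0 without a filter, 0 without an intensity trend, 47 with the replicate block, and 0 to 29 when each array of replicates 2 and 3 was left out (0 without pho1 replicate 2 or pho1 replicate 3, 29 without wild type replicate 2). Unfiltered, 22746 probe sets enter the adjustment, of which 6.88% passed in replicates 2 and 3 and 0 for the change between replicates. Without an intensity trend, 0 of the 15922 tested probe sets passed for that change. Counts over all tested probe sets also moved when an array was left out. Why the counts other than the unfiltered ones moved was not tested. The block moved the calls over all tested probe sets from 472 to 1057 over all 6 arrays, from 61 to 1312 for the change between replicates and from 2984 to 4447 in replicates 2 and 3. The replicate 1 median of -1.56 lay between -1.62 and -1.40 under all 5 alternatives. The median for the change between replicates lay between -1.60 and -1.20 under all of its own. Over all 6 arrays the median, -0.52, lay between -0.82 and -0.079 when each array was left out (-0.079 without pho1 replicate 1, -0.82 without pho1 replicate 2) and was -0.069 with array weights. No named call turned its direction. When an array is left out, the lone array of that group is assumed to vary like the others.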

Other observations

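The 8 plastid probe sets whose annotation lists several gene entries, mostly genes of the inverted repeat, enter no count above. Both rps12 probe sets were low in pho1 replicate 1. The dimmer read 379.6, 117 and 131 in wild type and 58.0, 157 and 109 in pho1, and the brighter 1536, 723 and 730.1 in wild type and 418, 1175 and 844 in pho1. Their replicate 1 differences were -2.52 and -1.85, and the change from replicates 2 and 3 passed for both (limma adjusted p = 0.041 and 0.046). The other 6 had replicate 1 differences of -0.17 for rpl2, -0.79 for rpl23, -0.54 for ycf2, -0.32 for ndhB, -0.97 for rps7 and -0.98 for ycf1, and 0 of the 8 passed in replicates 2 and 3 (limma; 1, the brighter rps12 probe set, at an unadjusted p under 0.05). When blocked by replicate, that probe set was higher in replicates 2 and 3 by 0.45 (limma adjusted p = 0.019), and rpl23, rps7 and ycf1 joined both rps12 probe sets in passing for the change (limma adjusted p = 0.025, 0.0017 and 0.0020).

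Among mitochondrial probe sets too dim to be tested, matR read 2.2, 2.7 and 2.9 in wild type and 2.5, 49.5 and 46.1 in pho1, so that the pho1 arrays of replicates 2 and 3 alone stand out. It was chosen after its values were seen. The complex I gene nad4 read 378, 244 and 222 in wild type and 172, 349 and 288 in pho1, with replicate 1 in the opposite direction to replicates 2 and 3.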
